A study of Mus musculus with 28 samples.

Results

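The regions described here are the sites of open chromatin, read by ATAC-seq, around 3 genes of fibroblast identity, Thy1, Prrx1 and Runx1, in mouse embryonic fibroblasts (MEFs) on the way to induced pluripotent stem cells. ATAC-seq cuts accessible DNA with a transposase, so that stacks of reads (peaks) mark open chromatin. All deposited peaks of 28 libraries that overlapped a fixed window were taken, in coordinates of mouse genome build mm9: chr9:43800000-43910000 for Thy1 (110 kb), chr1:165120000-165300000 for Prrx1 (180 kb) and chr16:92550000-92880000 for Runx1 (330 kb). Overlapping peaks of all libraries were merged into regions. This gave 91 regions of 172177 in all: 21 at Thy1, 19 at Prrx1 and 51 at Runx1. A region counted as called in a library when that library's own peak list held a peak overlapping it by at least 1 bp.

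All cells were Tet2-/- MEFs carrying the doxycycline-inducible OKSM cassette (Oct4, Klf4, Sox2 and c-Myc) and rtTA, from embryonic day 12.5 embryos of the strain background labelled V6.5 129XBI/6. The first group held untreated control MEFs, which the labels list with no isolation step. The other 6 groups were MEFs transduced with a pMXs retrovirus that was empty or carried Tet2-WT or Tet2-E, plated on Mito-C-treated MEF feeder cells, reprogrammed in doxycycline, LIF, PD0325901 and CHIR99021, sorted by SSEA1-RFP and taken at day 5 or day 10. Each of the 7 groups had 4 libraries. Sorting, feeder cells, retrovirus and culture medium all separate the later groups from the MEFs, so their effects and that of reprogramming cannot be told apart in any comparison with MEFs. The labels do not say whether the 4 libraries of a group came from separate cultures, and the p-values therefore measure only how these libraries spread, a spread that may be technical. The cells are bulk samples, in which fewer open cells and less opening per cell cannot be told apart.

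Thy1 encodes CD90, a surface glycoprotein of fibroblasts, T cells and neurons, and its loss from the cell surface is an early step of MEF reprogramming. Prrx1 encodes a paired-related homeobox transcription factor of mesenchymal cells. Runx1 encodes a runt-domain transcription factor, best known from blood, that binds DNA with its partner Cbfb and is transcribed from a distal (P1) and a proximal (P2) promoter. Tet2 oxidises methylated cytosine at CpG sites. Tet2-WT is the wild-type enzyme and Tet2-E is the mutant that the design text calls stalling, whose oxidation stops mainly at hydroxymethylcytosine.

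Since CpG sites are the substrate of the enzyme that the vectors restore, the promoters are shown with each CpG in capitals: the 250 bases before the transcription start, 5′ to 3′ on the strand of the gene, all of them minus-strand genes, from RefSeq on GRCm38.p6.
Prrx1: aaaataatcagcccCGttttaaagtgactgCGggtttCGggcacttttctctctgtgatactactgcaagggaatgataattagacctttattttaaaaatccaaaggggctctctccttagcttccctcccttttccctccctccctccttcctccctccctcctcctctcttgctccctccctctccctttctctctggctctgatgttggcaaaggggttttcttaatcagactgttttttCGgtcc
Runx1 distal (P1): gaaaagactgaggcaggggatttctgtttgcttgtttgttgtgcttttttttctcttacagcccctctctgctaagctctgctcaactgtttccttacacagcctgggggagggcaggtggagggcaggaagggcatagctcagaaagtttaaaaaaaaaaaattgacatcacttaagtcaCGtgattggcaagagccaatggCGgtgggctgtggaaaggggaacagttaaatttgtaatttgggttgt
Runx1 proximal (P2): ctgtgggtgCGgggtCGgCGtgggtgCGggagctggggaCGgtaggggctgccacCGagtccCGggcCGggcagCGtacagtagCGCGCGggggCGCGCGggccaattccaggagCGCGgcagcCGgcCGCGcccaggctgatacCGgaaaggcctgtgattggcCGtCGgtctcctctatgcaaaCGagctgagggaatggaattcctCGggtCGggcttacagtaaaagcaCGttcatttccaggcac
The Prrx1 stretch held 4 CpG and 47.6% G or C, and 62.2% of 32851 mouse promoters of that length held at least as many CpG. The distal Runx1 promoter held 2 CpG (as many or more in 81.2% of promoters) and the proximal one 27 (8.56%), against a median of 6. The proximal promoter of Runx1 was thus the CpG-rich one of the 3.

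Short motifs were searched on both strands in the 300 bases from 250 before to 50 after the start: the RUNX letters TGTGGT, the AP-1 letters TGANTCA and the homeodomain letters TAATTA. Only the distal Runx1 promoter matched the RUNX letters, which 16.8% of all promoters hold. It held 2 matches, 8 bases apart, in the stretch from base 26 to base 45 after the start, shown with the matches in capitals.
Runx1 distal (P1), RUNX matches: acaACCACAgaACCACAagt
The homeodomain letters, found in 5.29% of promoters, occurred once in the Prrx1 promoter, 173 bases before the start. The AP-1 letters, found in 7.81%, occurred in none of the 3 stretches. A match describes letters only. The peak coordinates are on mm9 and these sequences on GRCm38.p6, so no region below was assigned to a promoter, exon or intron. In gene order Thy1 lies between Nectin1 and Usp2, Prrx1 between Mroh9 and Gorab, and Runx1 between Clic6 and Setd4. Any region of a window, not only those near its ends, may belong to these neighbours. For the same reason, other fibroblast and pluripotency marker genes were not placed in the peak lists.

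The libraries held 27918 to 72332 peaks, of which 105 to 207 lay outside the 19 autosomes and X and were left out of the regions. As a measure of relative depth, the commonest background stack under the peaks of a library was 0.503 ± 0.113 (SD, n = 4) in MEFs, 0.865 ± 0.0732 (SD, n = 12) at day 5 and 0.522 ± 0.115 (SD, n = 12) at day 10. The day 5 libraries were therefore on average the deepest. MEF replicate 1 had the longest peak list (72332) and MEF replicate 2 the shortest of the 4 MEF lists (41450). A region that is not called lay below the authors' threshold in that library, which is not the same as being closed. Read totals were not in the files used here, so no limit of detection is given.

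Each region is named below by the gene of its window and its start in kb above the lower end. The name does not assign the region to that gene. Of the 91 regions, 35 (38.5%) were called only in MEFs, 25 (27.5%) in MEFs and in later libraries, and 31 (34.1%) only in later libraries. Over all 172177 regions these shares were 25.2%, 26.3% and 48.5%. Prrx1 had the largest MEF-only part of the 3 loci, 10 of 19 regions, with 4 shared and 5 only later. Thy1 had 8, 7 and 6, and Runx1 17, 14 and 20. The name fibroblast identity describes the genes, not every region: 31 of the 91 were called in no MEF library. That share was below the one over all regions (34.1% against 48.5%), and there were 24 later libraries against 4 of MEFs. Single-library calls made up 35 of the 91 regions, 18 of them from a MEF library and 8 of these from MEF replicate 1 alone.

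**Figure D1:**
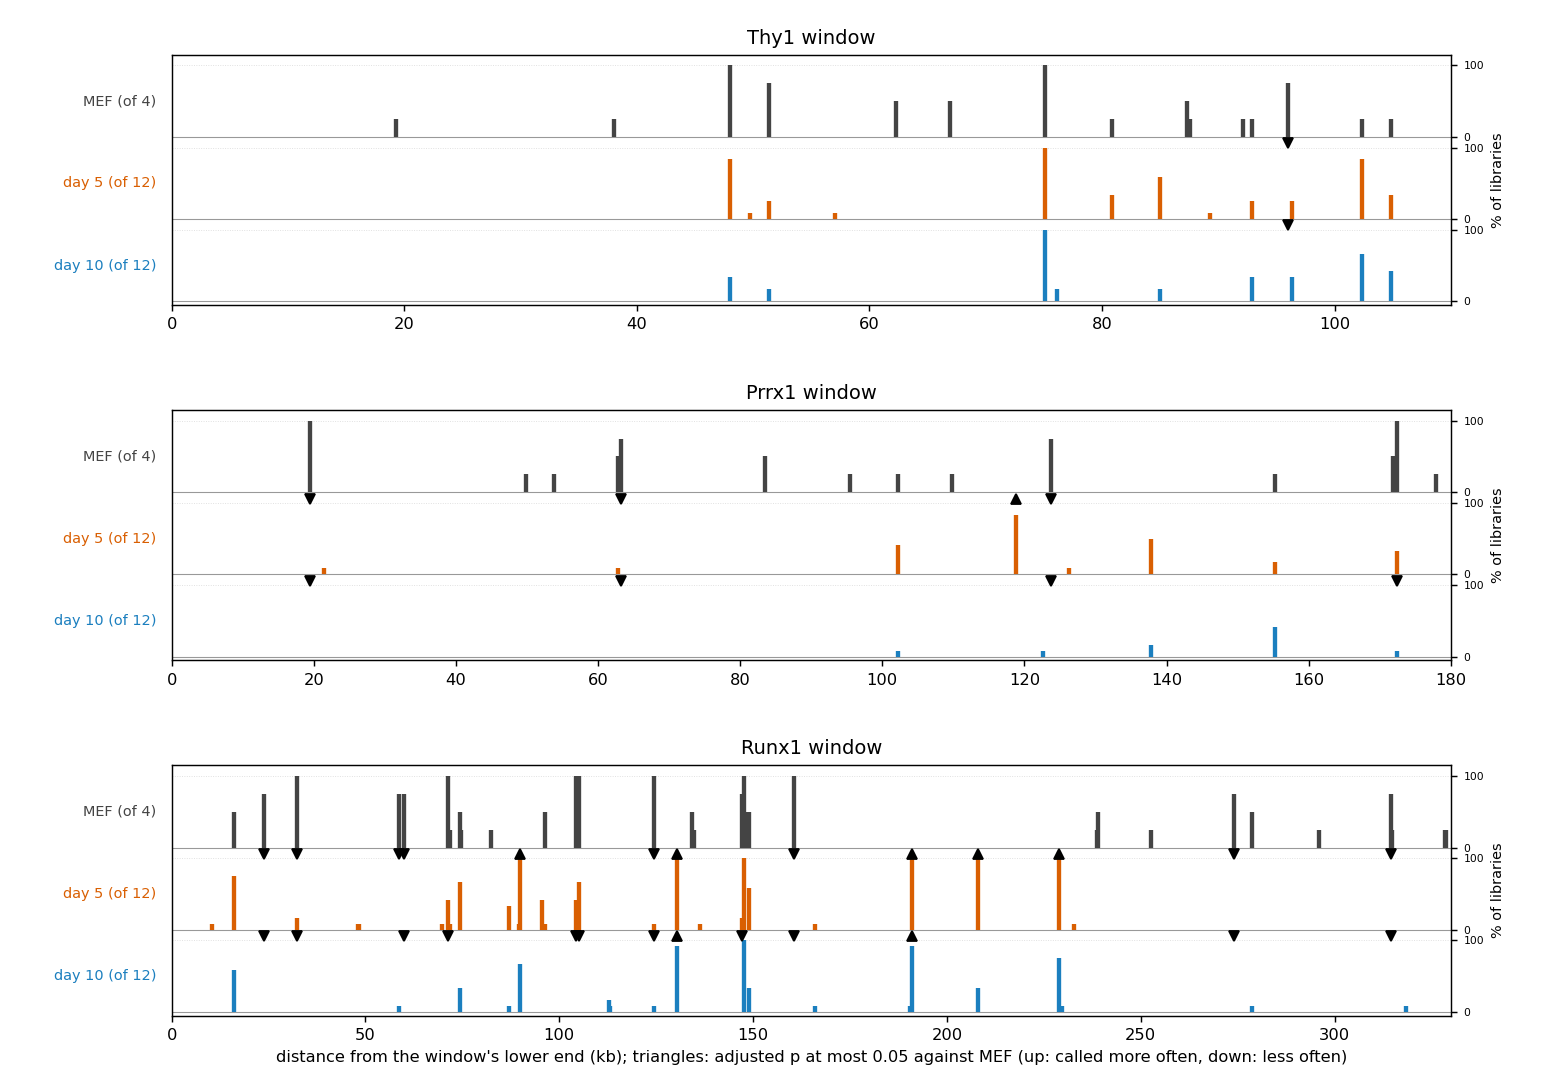
Share of libraries calling each region (percent, vertical) along the 3 windows (distance from the lower end in kb, horizontal), for 4 MEF, 12 day 5 and 12 day 10 libraries. Triangles mark regions called more (up) or less (down) often than in MEFs at an adjusted p of at most 0.05, and the upward ones stand at Runx1 and, at day 5, once at Prrx1.

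The number of regions called per library was on average highest in MEFs at each gene. At Runx1 the MEF libraries 1 to 4 called 24, 14, 20 and 14 regions (mean 18 ± 4.90, SD, n = 4), the day 5 libraries 8 to 15 (11.5 ± 1.98, SD, n = 12) and the day 10 libraries 5 to 10 (6.75 ± 1.60, SD, n = 12). MEF and day 10 libraries did not overlap at Runx1, while the best day 5 library (15) passed the lowest MEF libraries (14). At Prrx1 the MEF libraries called 9, 7, 5 and 6 regions (6.75 ± 1.71, SD, n = 4). The day 5 libraries called 1 to 5 there (2.5 ± 1.24, SD, n = 12) and the day 10 libraries 0 to 2 (0.833 ± 0.718, SD, n = 12). Prrx1 was thus nearly empty by day 10: 4 of the 12 libraries called nothing in its 180 kb.

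At Thy1 the 3 stages overlapped. The MEF libraries called 10, 4, 9 and 5 regions (7 ± 2.94, SD, n = 4), the day 5 libraries 3 to 7 (4.92 ± 1.38, SD, n = 12) and the day 10 libraries 1 to 8 (3.58 ± 2.15, SD, n = 12). The peak lists also shorten over the genome, so peaks in the 3 windows were set against each library's list. There were 5.73 ± 0.642 (SD, n = 4) per 10000 peaks in MEFs, 3.89 ± 0.332 (SD, n = 12) at day 5 and 3.07 ± 0.739 (SD, n = 12) at day 10. With only the strongest 27809 peaks of each library kept, so that all lists were equally long, the mean regions called in MEFs, at day 5 and at day 10 were 6.75, 6.42 and 5.42 at Runx1, 1.5, 0.917 and 0.333 at Prrx1, and 3, 1.75 and 2.58 at Thy1. The order of the stages was then the same at Runx1 and Prrx1, and Thy1 was lowest at day 5. The SD in MEFs, at day 5 and at day 10 was 2.75, 1.08 and 1.73 at Runx1, and 0.577, 1.16 and 0.492 at Prrx1. At both genes each step from one stage to the next was smaller than the SD at day 5. These sums over chosen windows are descriptions and carry no test.

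**Figure D2:**
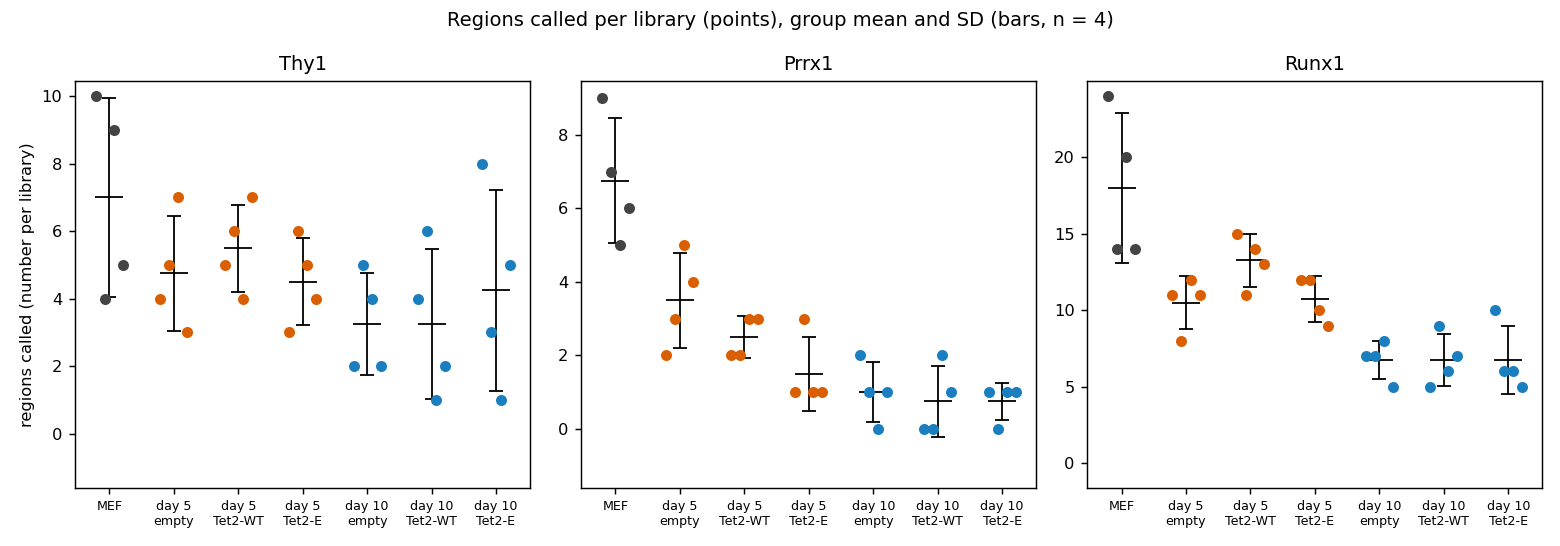
Number of regions called per library (vertical) at Thy1, Prrx1 and Runx1 in the 7 groups (horizontal); points are libraries, bars the group mean and SD (n = 4). At Prrx1 the 4 MEF libraries lie between 5 and 9 and the 12 day 10 libraries between 0 and 2.

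The regions with a call in each of the 4 MEF libraries numbered 11 in the 3 windows (2 at Thy1, 2 at Prrx1 and 7 at Runx1) of 27904 over the genome. A later library called 44.7% ± 16.2 (SD, n = 12) of the 11 at day 5 and 22.7% ± 4.75 (SD, n = 12) at day 10. Over the 27904 regions the same share was 54.6% ± 3.95 (SD, n = 12) and 45.1% ± 3.37 (SD, n = 12). At day 10 each library called 2 or 3 of the 11, and at day 5 between 2 and 8. Of the 11, 2 (Thy1 74.8 kb and Runx1 147.5 kb) were in all 28 libraries, as were 7740 of the 27904. These 2 are therefore part of the count of every later library. With lists of equal length, the regions in all 4 MEF libraries were picked anew from the shortened lists, so they were not the same 11. Their shares on the 2 days were the same, 31.3% ± 11.3 (SD, n = 12) each, which does not compare the days over the 11.

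Day 5 was compared with MEFs first, 12 libraries against 4, by Fisher's exact test (2-sided) of the number of libraries calling each region, with Benjamini-Hochberg adjustment over all 99090 regions of the genome called in at least 2 of these libraries. Of the 91 regions 53 could be tested. Of these, 12 passed as called less often at day 5 (22.6%, against 16.1% of all tested regions) and 6 as called more often (11.3%, against 9.81%). The less often called regions were 8 of 29 tested at Runx1, 3 of 11 at Prrx1 and 1 of 13 at Thy1, and the more often called ones were 5 at Runx1 and 1 at Prrx1. The median difference in the share of calling libraries was -41.7 percentage points over the 53 regions and 0 over all tested regions. It was -50 at Prrx1 and at Runx1, and 0 at Thy1.

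Day 10 was compared with the same 4 MEF libraries, so this comparison is not independent of the first. Of 50 regions tested, 16 passed as called less often (32%, against 22.6% of 89226 regions) and 2 as called more often (4%, against 5.66%), by the same exact test. The less often called regions were 11 of 27 at Runx1, 4 of 10 at Prrx1 and 1 of 13 at Thy1. Both more often called regions were at Runx1. The median difference was -50 percentage points against -8.33 over the genome, with -50 at Prrx1 and at Runx1 and 0 at Thy1. Over the 3 comparisons of days, 23 of the 91 regions passed at least once (17 at Runx1, 5 at Prrx1, 1 at Thy1). A further 33 were tested and did not pass, and 35 were in too few libraries for any test. The share of all regions of the genome that passed at least once was not counted, so 23 of 91 has no background here.

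The less often called counts rest on few MEF libraries. Of the 12 regions at day 5, 4 were called in all 4 MEF libraries and 8 in 3 of them. Leaving out MEF replicate 1, 2, 3 or 4 left 3, 7, 3 and 7 of the 12 passing, and at day 10 left 7, 12, 8 and 12 of the 16. Without MEF replicate 2 a further region, Runx1 58.5 kb, passed at day 10, which made 13. With lists of equal length, 3 of the 12 less often called regions and 3 of the 6 more often called ones still passed at day 5, and 4 of 16 and 1 of 2 at day 10. At day 5, Thy1 47.9 kb and Runx1 71.0 kb passed as less often called with these lists alone.

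At Prrx1 the plainest change was the 19.2 kb region (chr1:165139158-165139672), called in 4 of 4 MEF and 0 of 24 later libraries. This pattern is common: 6382 of the 27904 regions in all MEF libraries had it over the genome. In the 3 windows 2 of 11 had it, this region and Runx1 160.4 kb. The authors' fold enrichment at its summit was 11.8, 13.5, 12.4 and 11.6 in MEF replicates 1 to 4, each in its own list. The stack of reads or fragments at the summit, recovered from the authors' fold and p-value, was 25, 22, 24 and 18. All 4 MEF libraries thus had a tall peak where no later library had a call. Its adjusted p was 0.00449 at day 5 and 0.00374 at day 10 (Fisher's exact test), and it stayed at most 0.0319 under every alternative tried.

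A second Prrx1 region, at 172.2 kb (chr1:165292191-165292614), was in 4 MEF libraries, 4 of 12 at day 5 and 1 of 12 at day 10. Its adjusted p was 0.183 at day 5 and 0.0156 at day 10 in the exact test. Its summit stacks were 13, 8, 10 and 9 in MEFs, and 11, 12, 16 and 20 in the 4 day 5 libraries that called it, 2 with the empty vector and 2 with Tet2-WT. The day 10 call was lost without MEF replicate 1, and when replicate 1, 2 or 4 of both groups was left out. Among its alternatives the adjusted p ran from 0.0121 to 0.307.

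The Prrx1 regions at 63.1 kb (chr1:165183055-165183327) and 123.5 kb (chr1:165243539-165243879) were each in MEF replicates 1, 2 and 3 and in no later library. Both had an adjusted p of 0.0311 at day 5 and 0.0276 at day 10 (exact test). Their summit stacks were low, 10, 9 and 9 at 63.1 kb and 13, 10 and 12 at 123.5 kb. Leaving out any of the 3 calling MEF libraries ended both calls. Outside the naming rule, and named after their values were seen, were all regions described here in only 3 MEF libraries, Prrx1 172.2 kb, Runx1 32.1, 71.0, 124.4, 148.0 and 148.9 kb, and Thy1 96.2 and 102.2 kb.

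A single Prrx1 region passed in the other direction. The region at 118.7 kb (chr1:165238705-165238974) was in no MEF library, in 10 of 12 day 5 libraries (4 empty vector, 3 Tet2-WT and 3 Tet2-E libraries) and in none at day 10. Its summit stacks at day 5 were 17, 12, 17 and 17 for the empty vector, 14, 13 and 13 for Tet2-WT, and 14, 13 and 16 for Tet2-E. Its folds were low, 3.80 to 6.37. It was the one region of the 3 loci that passed between the later days, with an adjusted p of 0.0212 against day 10 and 0.0318 against MEFs in exact tests.

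Day 5 libraries were deeper than those before and after, and the part of depth in the transient call at Prrx1 118.7 kb was not tested. Its call against MEFs was lost in 11 of 14 alternatives, which include leaving out any MEF library and the equal list lengths. The call against day 10 was lost in 9 of 11, among them leaving out the 3 day 10 libraries numbered 4 (adjusted p from 0.0169 to 1 over its alternatives).

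At Runx1, 7 regions were in all 4 MEF libraries. The one at 147.5 kb was in every later library too, and the other six were in 8 or fewer of the 12 libraries at day 5 and in 0 or 1 at day 10. The 160.4 kb region (chr16:92710429-92710723) was in none of the 24 later libraries, with an adjusted p of 0.00449 at day 5 and 0.00374 at day 10 (exact test). Its MEF folds were 10.8, 4.99, 6.52 and 6.86 and its summit stacks 17, 6, 9 and 9, so only MEF replicate 1 held a tall peak. The call was lost in 1 alternative, which required peaks to cover 50% of the region.

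The Runx1 region at 71.0 kb (chr16:92621024-92621542) had the single highest fold and stack of the 3 loci, both in MEF replicate 3, with folds of 12.5, 11.5, 16.5 and 10.5 and stacks of 39, 25, 44 and 24 in MEFs. At day 5 it was in 5 of 12 libraries, 1 empty vector, 3 Tet2-WT and 1 Tet2-E library, with stacks of 10 to 14. In the 5 day 5 libraries with a call, the stacks were under every MEF stack, but the region was named after its values were seen. The part of depth was not tested. At day 10 it was in 0 of 12. The adjusted p was 0.198 at day 5 and 0.00374 at day 10 (exact test).

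A neighbouring pair at 104.1 kb (chr16:92654130-92654312) and 104.8 kb (chr16:92654769-92655233), 456 bp apart, was also in all 4 MEF libraries, in part of the day 5 libraries (5 and 8 of 12) and in none at day 10. The stacks of the 104.8 kb region were 16, 18, 17 and 9 in MEFs and 8 to 16 at day 5. Those of the 104.1 kb region were 17, 10, 10 and 10 in MEFs and 8 to 13 at day 5. Both passed at day 10 against MEFs (adjusted p 0.00374, exact test) and neither at day 5 (0.198 and 0.767). Between day 10 and day 5 the 104.8 kb region had a raw p of 0.00219 but an adjusted p of 0.0830.

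The Runx1 regions at 32.1 kb (chr16:92582073-92582522) and 124.4 kb (chr16:92674396-92674666) passed against MEFs on both days. The first was in 4 MEF, 2 day 5 and 0 day 10 libraries (adjusted p 0.0318 and 0.00374, exact test) and the second in 4, 1 and 1 (0.0165 and 0.0156). MEF stacks were 15, 16, 8 and 6 in the first and 7, 7, 6 and 8 in the second, with the lowest median (7) of the 7 regions. The day 5 call at 32.1 kb was lost when any single MEF library was left out. That at 124.4 kb was lost when replicate 1, 2 or 3 of both groups was left out, and its day 10 call without replicate 1, 3 or 4.

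A further 4 Runx1 regions, at 23.8, 59.6, 273.9 and 314.6 kb, were in 3 MEF libraries and in none of the 24 later ones. Each had an adjusted p of 0.0311 at day 5 and 0.0276 at day 10 (exact test). The missing MEF library was replicate 2 at 23.8 and 273.9 kb and replicate 4 at 59.6 and 314.6 kb. The regions at 58.5 kb (3 MEF, 0 day 5, 1 day 10) and 146.9 kb (3, 2 and 0) passed on 1 day each, the first at day 5 (0.0311) and the second at day 10 (0.0276). All passing calls at these 6 regions depended on the 3 MEF libraries that made them: leaving out any one of those ended the call.

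Beside these, Runx1 held 5 regions that no MEF library called and all 12 day 5 libraries did. How many regions of the genome share this pattern was not counted. The regions that passed as called more often at day 5 were 5 of 29 tested at Runx1 (17.2%), against 9.81% over the genome. At day 10 the shares were 7.41% and 5.66%. They began at 89.7, 130.2, 190.8, 207.8 and 228.5 kb. Each had an adjusted p of 0.00449 (exact test). As merged regions they were 323 to 621 bp wide, against a median of 197 bp over the 91 regions. A merged region can widen with each library that calls it. These 5 were in 16 to 23 libraries, while 35 of the 91 were in 1. Their median peak width at day 5 ran from 174 bp at 207.8 kb to 466 bp at 228.5 kb.

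The 190.8 kb region (chr16:92740753-92741215) had day 5 stacks of 20, 16, 21 and 21 in the 4 empty vector libraries, 18, 21, 19 and 20 in those of Tet2-WT and 19, 22, 25 and 18 in those of Tet2-E. At day 10 it was in 11 of 12 libraries, with stacks of 7 to 19. The 130.2 kb region (chr16:92680205-92680674) had day 5 stacks of 15, 13, 17 and 18, then 23, 19, 24 and 14, then 15, 14, 15 and 16 in the same order, and day 10 stacks of 8 to 16 in 11 of 12 libraries. These 2 were the only regions of the 3 loci that passed as called more often at day 10 than in MEFs (adjusted p 0.0156 each, exact test). That day 10 call was lost in 6 of 15 alternatives at 190.8 kb and 5 of 15 at 130.2 kb. At both these were leaving out replicate 1, 2 or 3 of both groups, a −log10 q of at least 5 and 50% coverage, and at 190.8 kb also equal list lengths (adjusted p over all alternatives 0.00857 to 0.677 at 190.8 kb and 0.00857 to 1 at 130.2 kb).

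The other three of the 5 were called less widely at day 10 without passing against MEFs. The 89.7 kb region (chr16:92639722-92640192) was in 8 of 12 day 10 libraries, 1 empty vector, 3 Tet2-WT and 4 Tet2-E libraries (adjusted p 0.169 against MEFs, exact test). The 228.5 kb region (chr16:92778539-92779159) was in 9 of 12, 3 with each vector (0.0634). The 207.8 kb region (chr16:92757803-92758125) was in 4 of 12 (0.745), and its adjusted p between day 10 and day 5 was 0.0830.

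Its stacks at 207.8 kb were 13 to 17 for the empty vector, 9 to 14 for Tet2-WT and 11 to 15 for Tet2-E at day 5, and 7 to 11 in the 4 day 10 libraries. MEF and day 10 libraries were about equally deep, and both were shallower than day 5. The part of depth in the day 5 calls was not tested. With lists of equal length, 3 of the 6 more often called regions still passed at day 5.

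**Figure D3:**
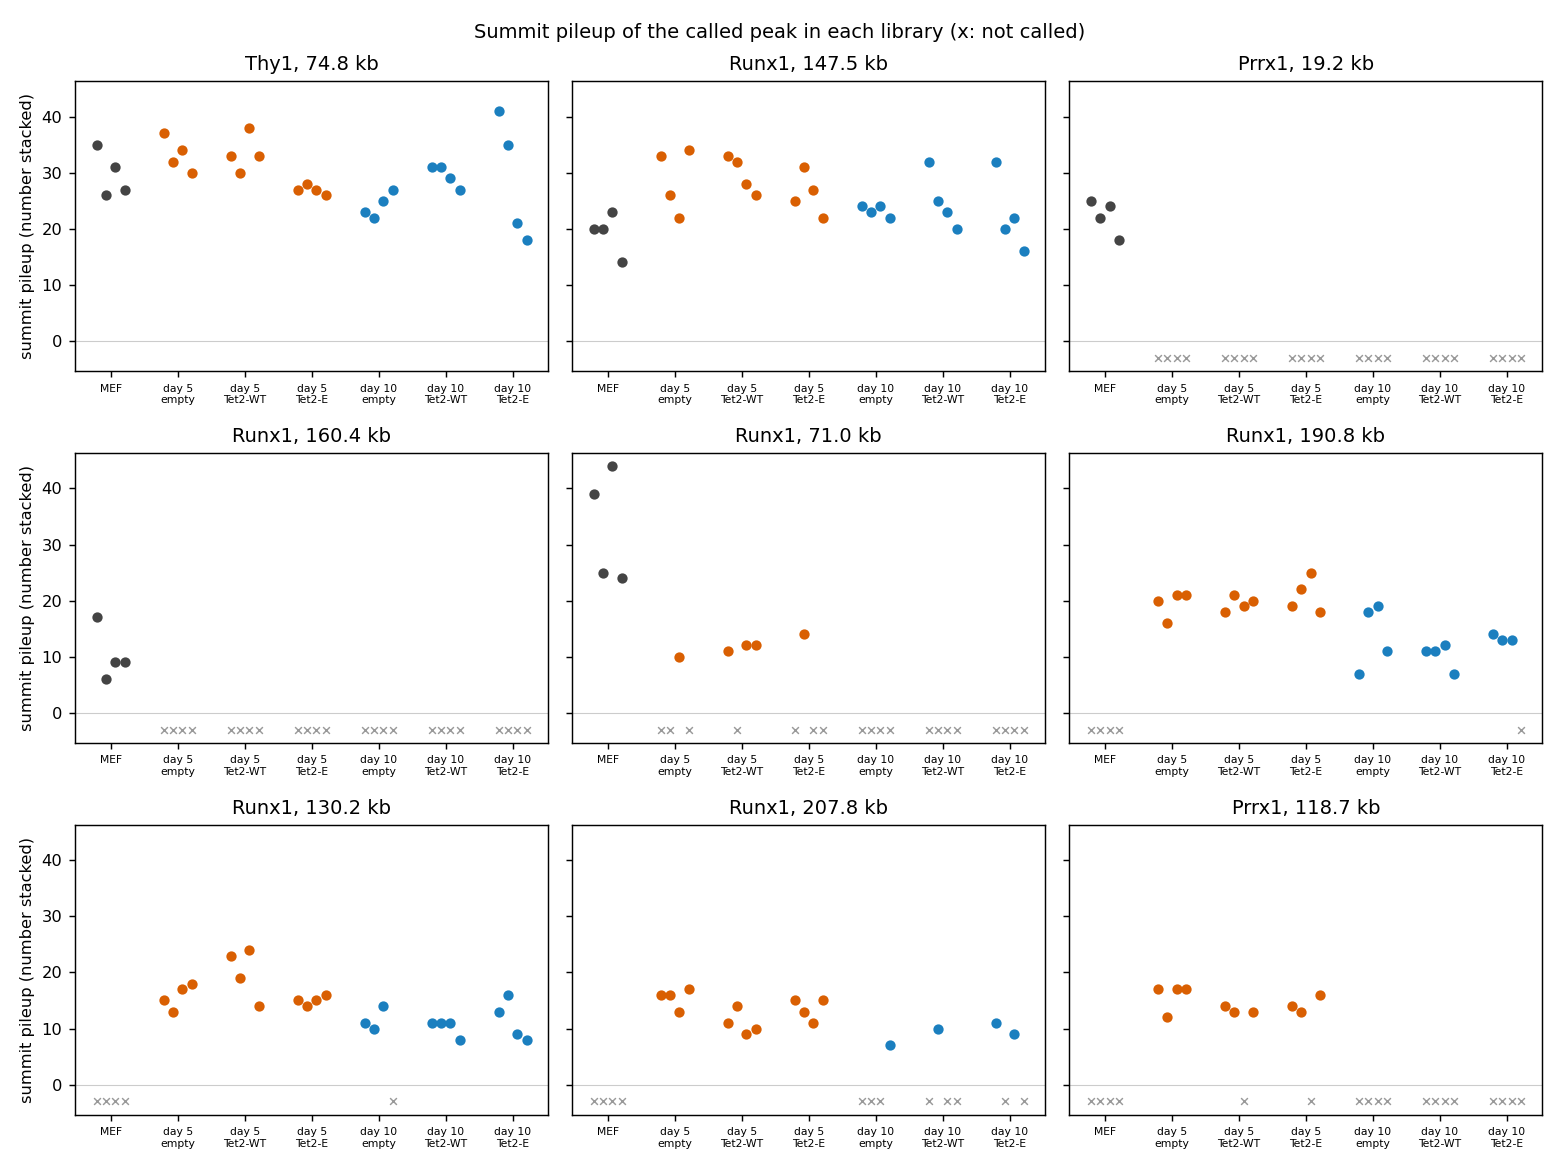
Summit stack of the called peak in each library (vertical, number of stacked reads or fragments; crosses below 0 mark libraries without a call) for 9 regions, by group (horizontal). Prrx1 19.2 kb and Runx1 160.4 kb have values in MEFs alone, and Runx1 130.2 and 190.8 kb have none in MEFs.

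The Runx1 window thus held regions called less often and regions called more often than in MEFs, and 14 tested regions that passed in no comparison. Of these, the site at 147.5 kb (chr16:92697478-92697860) was in all 28 libraries. Its stacks were 20, 20, 23 and 14 in MEFs, 22 to 34 at day 5 and 16 to 32 at day 10. Around it, the region at 146.9 kb was in 3 MEF, 2 day 5 and 0 day 10 libraries, the one at 148.0 kb in 2 MEF libraries only, and the one at 148.9 kb in 2 MEF, 7 day 5 and 4 day 10 libraries. So a site called throughout had flanks that some MEF libraries called and day 10 libraries called in part or not at all.

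In the Thy1 window the site with the highest folds was called throughout. Whether it belongs to Thy1 or to a neighbour such as Usp2 was not determined. The 74.8 kb region (chr9:43874845-43875325) was in all 28 libraries, with folds of 13.7, 14.6, 13.9 and 13.3 and stacks of 35, 26, 31 and 27 in MEFs. The folds ran from 9.45 to 13.2 at day 5 and from 9.82 to 13.6 at day 10, each a ratio within its own list that was not tested between groups. The stacks ran from 26 to 38 at day 5 and from 18 to 41 at day 10. A call in every library thus does not show an equal peak in every library. Calls in all 28 libraries were made at 7740 regions, 4.50% of all, and at 2 of these 91.

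The second region in all 4 MEF libraries, Thy1 47.9 kb (chr9:43847912-43848198), had stacks of 21, 16, 23 and 14 in MEFs. It was in 4, 4 and 2 of 4 libraries at day 5 (empty vector, Tet2-WT, Tet2-E), with stacks of 10 to 16, and in 1, 2 and 1 at day 10, with stacks of 8 to 13. The lower share of calls did not pass: the adjusted p was 0.169 between day 10 and MEFs and 0.361 between day 10 and day 5 (raw p 0.0343), by exact tests. With lists of equal length its call passed at day 5 (0.0314), and over the alternatives of that comparison the adjusted p ran from 0.0314 to 1.

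The single Thy1 region that passed, at 96.0 kb (chr9:43895952-43896120), was in MEF replicates 1, 3 and 4 with stacks of 14, 14 and 10 and in no later library (adjusted p 0.0311 and 0.0276, exact test). Only 72 bp above it, the 96.2 kb region (chr9:43896193-43896449) was in no MEF library, 3 day 5 and 4 day 10 libraries. Merging peaks within 200 bp joined the pair and ended the call (0.259 at day 5 and 0.447 at day 10). Leaving out any of the 3 calling MEF libraries ended it too.

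Near the upper end of the Thy1 window, the 102.2 kb region (chr9:43902242-43902534) was in 1 MEF, 10 day 5 and 8 day 10 libraries and did not pass. Its stacks were 8 in MEF replicate 3, 10 to 15 at day 5 and 6 to 19 at day 10. The Thy1 84.9 kb region (chr9:43884922-43885085) was in 0 MEF, 7 day 5 and 2 day 10 libraries (adjusted p 0.198 between day 5 and MEFs, exact test). No Thy1 region passed as called more often than in MEFs on either day.

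**Figure D4:**
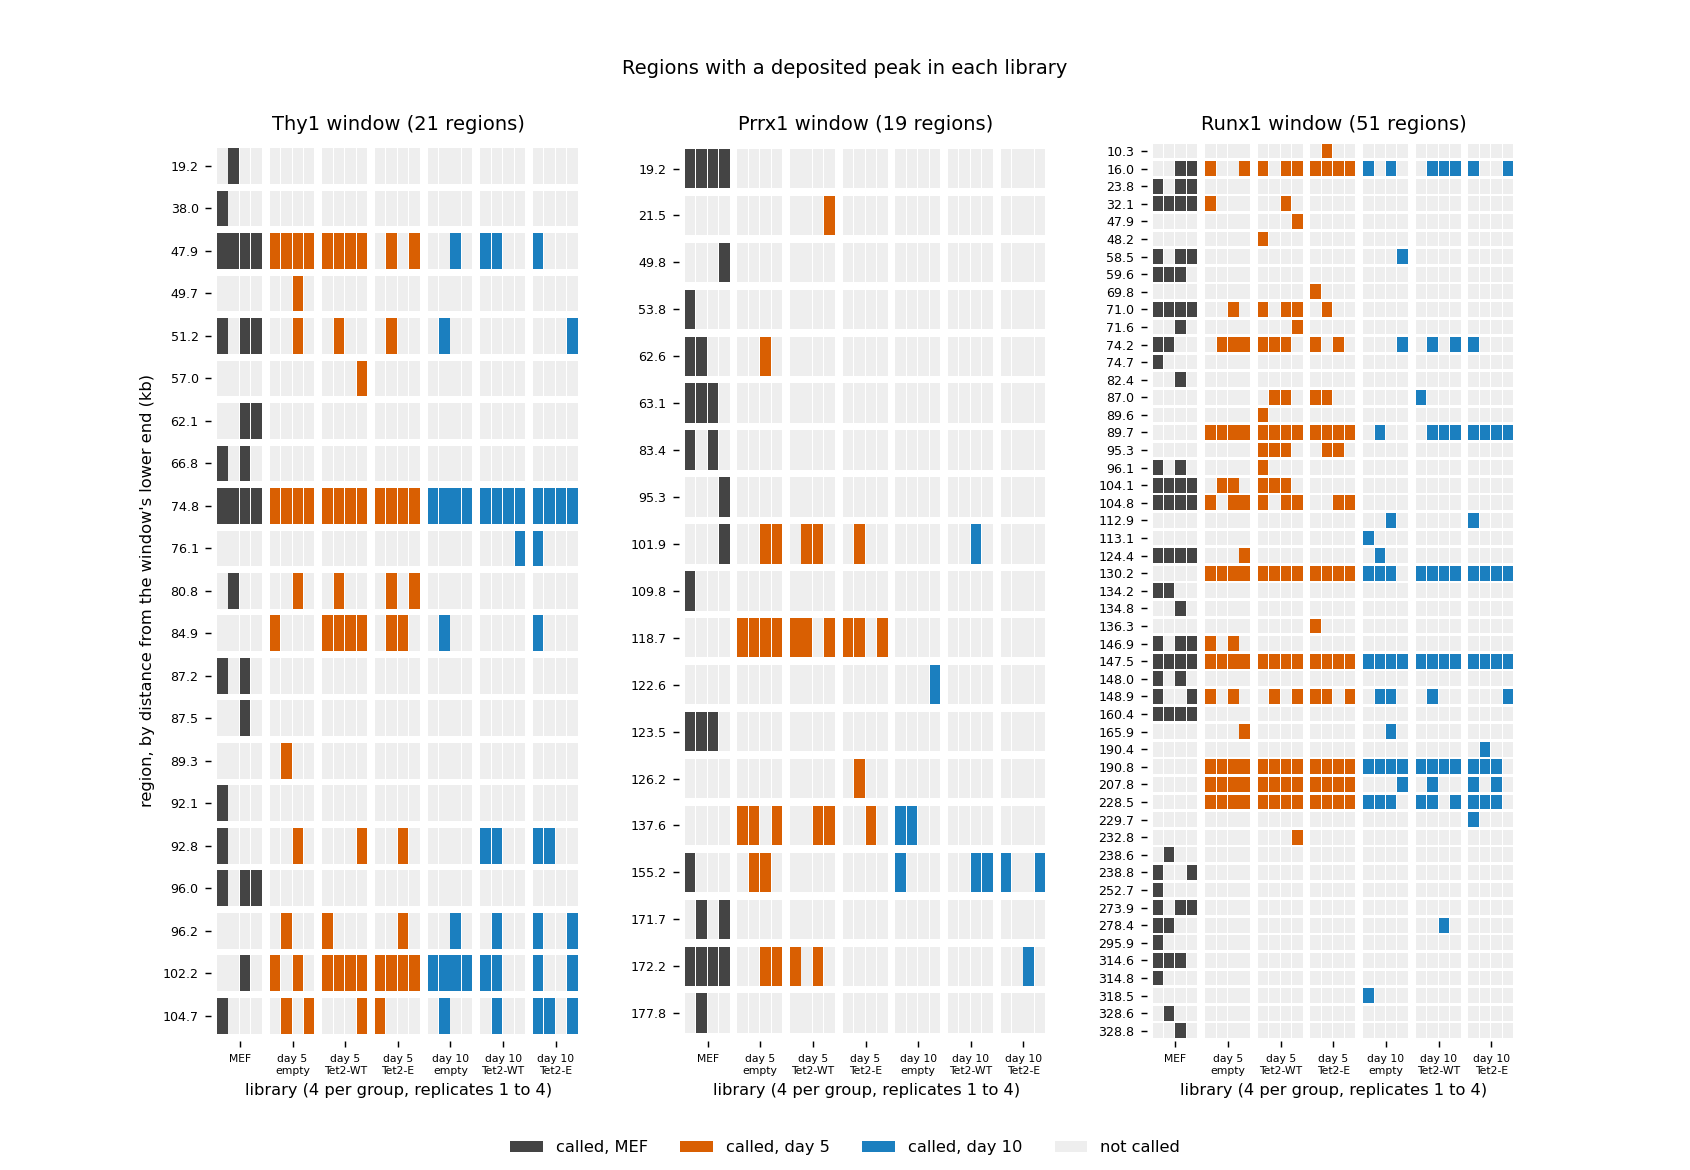
Calls of each of the 91 regions (rows, by start in kb above the lower end of the window) in each of 28 libraries (columns, 4 per group); filled cells have a deposited peak. Thy1 74.8 kb and Runx1 147.5 kb are filled in all 28 columns, and the Prrx1 panel is nearly empty at day 10.

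The later days were set against each other, 12 libraries against 12, with a 2-sided exact conditional test that kept the 3 vectors apart. Of 34 regions tested, 1 passed as called less often at day 10 (Prrx1 118.7 kb) and 0 as called more often, against 1.00% and 0.144% of 83195 regions. At an unadjusted p under 0.05 there were 7, all less often called at day 10: 5 at Runx1 and 1 each at Thy1 and Prrx1. Over the genome 10165 of the 83195 regions had such a p, and 9005 of these were less often called at day 10. The median difference in the share of calling libraries, day 10 minus day 5, was -20.8 percentage points over the 34 regions and -8.33 over the genome. The day 10 libraries were also shallower than those of day 5, and the part of depth in this was not tested.

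The 3 vectors were compared with day as a stratum, 8 libraries against 8, by the same exact conditional test. No region of the 3 loci passed in any of the 3 comparisons: 0 of 32 tested for Tet2-WT against the empty vector, 0 of 32 for Tet2-E against the empty vector and 0 of 29 for Tet2-E against Tet2-WT, with a background of 0% in each. At an unadjusted p under 0.05 there were also 0 among these regions, and 525, 340 and 404 over the genome. Every adjusted p was 1. This does not show that the vectors act alike, since 4 libraries per group and day leave little room for a difference in calls.

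The smallest p between vectors were 0.143, 0.120 and 0.143. Runx1 95.3 kb (chr16:92645326-92645554) was in 0 of 4 empty vector, 3 Tet2-WT and 2 Tet2-E libraries at day 5, in no MEF and in no day 10 library. Prrx1 137.6 kb (chr1:165257555-165258085) was in 5 of 8 empty vector, 2 of 8 Tet2-WT and 1 of 8 Tet2-E libraries. Runx1 104.1 kb was in 2 of 4 empty vector, 3 Tet2-WT and 0 Tet2-E libraries at day 5. None of these differences passed in the exact test.

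Per library, the 11 regions of all MEF libraries were still called at day 5 in 5, 4, 7 and 6 cases in the empty vector libraries, 7, 4, 8 and 5 in those of Tet2-WT, and 2, 4, 3 and 4 in those of Tet2-E. The Tet2-E libraries were the lowest or tied with the lowest of the other vectors. At day 10 all 3 vectors had 2 or 3. Over the genome the day 5 shares were 55.1% ± 5.67 (SD, n = 4), 56.0% ± 3.49 (SD, n = 4) and 52.7% ± 2.32 (SD, n = 4). The difference in the 11 regions is a description of chosen regions and was not tested.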

How the data were processed

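ATAC-seq libraries of 7 groups with 4 libraries each were deposited as 1 peak list per library. The submitters' processing notes name Bowtie2, SAMtools, bedtools, MACS2 and build mm9. Not given in the sources used here were versions, settings, duplicate removal and any shift for the transposase cut site. Each deposited list holds, per peak, the authors' score (10 times the −log10 q, as a whole number), the fold enrichment at the summit as a ratio to local background, and −log10 of the p- and q-value. The deposited lists also give the summit's position. The lowest −log10 q in the lists lay just above 2, so peaks passed a q of 0.01.

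From these, peaks of the 28 libraries on 20 chromosomes were merged, and calls per region were tested with Fisher's exact test or an exact conditional test with strata. Values were adjusted by Benjamini-Hochberg over all regions in at least 2 of the compared libraries, with a threshold of 0.05. The whole-number summit stack was solved from the fold and −log10 p (Poisson, tolerance 0.0002), and all 488 member peaks gave one. 1 peak matched 2 whole numbers. Whether it counts reads or fragments is not stated. No 2 lists were identical. Scripts were tested on simulated data and used Python 3.11.15, NumPy 2.4.6, pandas 2.3.3, SciPy 1.17.1 and matplotlib 3.10.9.

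Per gene, regions were named if called in 4 MEF and no later library, more often after MEFs past the threshold, in at least 27 libraries, among the 3 smallest p between days, or among the 2 smallest p over all loci between vectors. The windows, lists and tests were chosen with earlier results of these data known. Alternatives were a −log10 q of at least 5, equal list lengths, coverage of 50% of the region, at least 4 libraries, merging within 200 bp, the replicate number as a block, and leaving out each replicate. Leaving out single MEF libraries or the day 10 libraries numbered 4 was added after seeing the data. Peak widths and scores were not compared between groups.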

Additional observations from a re-analysis of the deposited data

Results flagged for a closer look

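In 4 of 56 sets of 4 libraries, 1 library was flagged as lying apart from the other 3. The rule's nominal rate of 1 in 20 does not hold for small counts, since any library beside 3 equal ones is flagged. The sets also overlap, so 4 of 56 was not set against chance. Day 5 Tet2-E replicate 2 called 3 regions at Prrx1, against 1, 1 and 1 in the others. Day 10 Tet2-WT replicate 2 called 15 regions over the 3 loci, against 9, 9 and 10. Day 10 Tet2-E replicate 2 called 0 regions at Prrx1, against 1, 1 and 1, and so covered 0 bp there, against 76, 77 and 83 bp. Causes were not tested.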

How the results depend on the processing

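No tested result that passed changed direction in any alternative, and the cause of each shift below was not tested, apart from the fewer regions or libraries that an alternative leaves. Regions that passed as called more often at day 5 than in MEFs numbered 6, and 3 with equal list lengths. Those called less often numbered 12, against 5 with equal list lengths, 5 among regions in at least 4 libraries, 2 to 7 when each replicate number was left out, and 3, 7, 3 and 7 without MEF replicate 1, 2, 3 or 4. At day 10 the 2 more often called became 0 at a −log10 q of at least 5, 1 with equal list lengths, 0 when peaks had to cover 50% of a region, and 0 to 2 when each replicate number was left out. The 16 less often called became 4 with equal list lengths, 9 among regions in at least 4 libraries, 6 to 12 when each replicate number was left out, and 7, 13, 8 and 12 without MEF replicate 1, 2, 3 or 4. The 1 region less often called at day 10 than at day 5 became 0 at a −log10 q of at least 5, 0 with equal list lengths, 2 with 50% coverage, 0 when each replicate number was left out and 0 without the day 10 libraries numbered 4. All comparisons of vectors gave 0 in every alternative.

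With equal list lengths the mean regions per library were 3 at Thy1, 1.5 at Prrx1 and 6.75 at Runx1 in MEFs, and 1.75, 0.917 and 6.42 at day 5. At Thy1 day 10 (2.58) then stood above day 5. With 50% coverage the day 5 means were 3.08, 1.17 and 7.58, and the day 10 mean at Runx1 was 2.75. At a −log10 q of at least 5 the means were 4.25 at Prrx1 in MEFs, 9.25 at Runx1 at day 5 and 4.92 at Runx1 at day 10. Each alternative picked its all-MEF regions anew, so the following shares are over sets that can differ from the main one. The share of all-MEF regions still called at day 10 was 29.2% at a −log10 q of at least 5. With equal list lengths it was 31.3% at day 5 and 31.3% at day 10, so that no difference between the days was seen in that set. It was 15.0% to 23.3% over the replicate numbers left out, and 24.2%, 16.2% and 16.7% without MEF replicate 1, 2 or 4.

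Correlations between same-numbered libraries of different groups ran from -0.0185 to 0.0902 over 84 pairs (median 0.0038, none over 0.1), so the numbers were not taken as pairs. A library correlated best with its own number in 69 of 168 cases, where 4 equal candidates would give 42, which is a hint from the data and not from the design. With the replicate number as a block, 3 regions passed as less often called at day 5, 8 at day 10, and 0 at day 10 against day 5. Depth limits these results: a call depends on the stack a library can reach, read totals were not used here, and 4 MEF libraries make each MEF call weigh heavily.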
